A study of Mus musculus with 278 samples.

Results

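The 10 glycolytic genes described here were Slc2a1, Hk1, Hk2, Pfkp, Aldoa, Pgk1, Pgam1, Eno1, Pkm and Ldha. They were taken by name from a table of 14145 genes, with earlier results of these data known. All 10 were present and passed the filter on low values. Keratinocytes from adult mouse dorsal skin had been grown together at 9 wild-type (WT) cells to 1 transgenic cell. The transgene, K14ΔNβ-cateninER, is driven by the keratin 14 promoter and encodes an oestrogen receptor fusion of beta-catenin in stable form, which 4-hydroxy-tamoxifen (4OHT) activates. The comparison was meant to show how cells respond to neighbours in which beta-catenin signalling is switched on. Untreated cultures received DMSO and treated cultures received 200 nM 4OHT for 24 h. Every culture therefore held transgenic cells, which were not told apart from WT cells here. Single cells were captured on a microfluidic chip for medium-sized cells, and full-length cDNA was sequenced.

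The library names fall into a pair of series, AG and GHA501A, each with untreated and treated cells, which gives 4 library sets. These held 66 AG untreated, 64 AG treated, 71 GHA501A untreated and 69 GHA501A treated cells, 270 of the 278 cells that carry a label. The other 8 AG cells, whose library name and treatment label disagree, were left out. Values are in TPM, a level per transcript length that sums to 1000000 in every cell, so the read depth of a cell is unknown. The median cell had between 6008 and 6392 genes at TPM over 1 in the 4 sets.

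Although all cells are labelled keratinocytes, the series differed in cell markers. The summed level of the 11 measured keratinocyte markers had a median of 15730 TPM in AG untreated and 12298 TPM in AG treated cells, against 14.3 and 66.6 TPM in the GHA501A sets. The summed level of 8 measured fibroblast markers had medians of 10.2 and 7.40 TPM in AG and of 2232 and 1947 TPM in GHA501A. By a rule on the keratin gene Krt14 and the collagen gene Col1a1 (at least 200 TPM of one and less of the other), 65 of 66 and 62 of 64 AG cells were Krt14-high. In GHA501A only 9 of 71 and 12 of 69 cells were Krt14-high, whereas 58 and 51 were Col1a1-high. Between 2 and 12 cells of a set lay within 100 to 400 TPM of either class gene. Of 4 immune markers only Lyz2 was measured, with set medians between 24.0 and 91.2 TPM and a highest cell of 54196 TPM in GHA501A treated cells. These classes are ranges of a pair of genes and not cell types.

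Glycolysis splits glucose into pyruvate in the cytosol and yields ATP without oxygen. Slc2a1 (the glucose transporter GLUT1) admits glucose, the hexokinases Hk1 and Hk2 trap it as glucose 6-phosphate, and Pfkp, a phosphofructokinase, makes the committed step. Aldoa (aldolase A) cleaves the sugar, Pgk1, Pgam1, Eno1 and Pkm (phosphoglycerate kinase, phosphoglycerate mutase, enolase and pyruvate kinase) carry the products on to pyruvate with a yield of ATP, and Ldha (lactate dehydrogenase A) turns pyruvate into lactate. Basal keratinocytes in culture are known to be strongly glycolytic, and many of these genes are known targets of the transcription factors HIF1 and MYC.

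In the mouse genome (GRCm38, GENCODE M21) the genes lie apart on the chromosomes. Slc2a1 spans chr4:119108711-119137983, Hk1 chr10:62268855-62379908, Hk2 chr6:82725025-82774454 and Pfkp chr13:6579768-6648777. Pgk1 lies at chrX:106187100-106203699, Pgam1 at chr19:41911923-41918660, Eno1 at chr4:150236721-150248879, Pkm at chr9:59656368-59679375 and Ldha at chr7:46841475-46855627. The name Aldoa belongs to 2 neighbouring annotated genes, at chr7:126795234-126800751 and chr7:126800790-126809108, and the table has 1 row of that name.

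Because the genes moved together across cells, as described further on, the sequence before their transcription starts was examined for ACGTG on either strand, the core of the element bound by HIF1. RefSeq starts were available for all 10 genes, 17 in all. In the 250 bases before the start, 7 of 10 genes (8 of 17 starts) held the motif, against 18.5% of 27025 mouse genes and 16.6% of 32851 starts. Starts 2 and 3 of Aldoa, both counted here, have overlapping windows that share the same match. A gene with several starts also has more windows in which to match. Windows of 4 genes with a match are shown 5′ to 3′ along the gene's strand (RefSeq, GRCm38.p6), with the motif in capitals. Pgk1, Pgam1 and Hk2 are the genes with a single RefSeq start, a match and a window outside their annotated gene. Ldha is shown because it has the most matches, although its window lies within the annotated gene. Slc2a1 also has a single start and 1 match, but its window overlaps the annotated gene and is not shown.
Hk2, chr6:82774455-82774704, minus strand: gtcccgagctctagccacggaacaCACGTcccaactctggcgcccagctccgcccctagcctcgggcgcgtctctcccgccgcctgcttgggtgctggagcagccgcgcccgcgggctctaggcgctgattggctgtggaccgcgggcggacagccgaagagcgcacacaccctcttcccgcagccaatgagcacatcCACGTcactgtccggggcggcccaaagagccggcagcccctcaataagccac
Pgk1, chrX:106186850-106187099, plus strand: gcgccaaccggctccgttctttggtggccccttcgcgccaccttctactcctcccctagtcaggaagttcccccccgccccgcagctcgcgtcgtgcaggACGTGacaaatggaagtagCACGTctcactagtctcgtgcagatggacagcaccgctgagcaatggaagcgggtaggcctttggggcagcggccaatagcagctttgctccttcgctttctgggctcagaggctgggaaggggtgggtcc
Pgam1, chr19:41911621-41911870, plus strand: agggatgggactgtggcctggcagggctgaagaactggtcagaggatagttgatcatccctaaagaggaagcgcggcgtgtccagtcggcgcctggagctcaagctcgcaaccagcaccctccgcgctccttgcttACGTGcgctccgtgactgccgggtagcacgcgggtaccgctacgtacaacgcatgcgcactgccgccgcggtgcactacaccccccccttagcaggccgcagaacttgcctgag
Ldha, chr7:46845554-46845803, plus strand: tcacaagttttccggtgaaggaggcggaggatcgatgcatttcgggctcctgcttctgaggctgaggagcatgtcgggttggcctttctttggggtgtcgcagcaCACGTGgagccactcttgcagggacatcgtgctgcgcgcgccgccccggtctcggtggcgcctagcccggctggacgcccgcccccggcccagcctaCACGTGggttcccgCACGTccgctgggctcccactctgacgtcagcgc
Hk2 and Pgk1 each held 2 separate matches, Pgam1 held 1, and the first of 2 Ldha starts held 3 stretches, where CACGTG reads as a match on both strands. No match was found before any start of Hk1, Pfkp or Eno1. A match describes these letters only, and no binding was measured here.

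Glucose uptake and trapping came first. Slc2a1 had a mean of 147.6 TPM (SD 118.1 between cells, n = 66) in AG untreated and 231 TPM (SD 377, n = 64) in AG treated cells, against 76.6 TPM (SD 97.2, n = 71) and 72.8 TPM (SD 91.8, n = 69) in the GHA501A sets. The higher AG treated mean rested on few cells, since the medians of the AG sets were 138.4 and 134.3 TPM and the highest treated cell held 2704 TPM. Hk2 was the main hexokinase, with set means of 519, 598, 478 and 521 TPM for AG untreated, AG treated, GHA501A untreated and GHA501A treated. Single cells varied widely around these, from 2.76 to 2365 TPM in AG untreated cells alone. Hk1 was near the floor in AG, at means of 0.426 and 0.546 TPM, and was higher in GHA501A, at 8.88 and 15.1 TPM. TPM over 1 for Hk1 was found in 7.58% of AG untreated cells (95% Wilson interval 3.28 to 16.5%, counting error only) and in 67.6% of GHA501A untreated cells (56.1 to 77.3%). Hk2 exceeded Hk1 in 66 of 66, 63 of 64, 68 of 71 and 68 of 69 cells of the 4 sets.

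Pfkp, at the committed step, had low means of 52.7, 52.96, 33.6 and 49.04 TPM in the 4 sets in the same order. Its liver-type relative Pfkl exceeded it in most cells, in 95.5 and 98.4% of AG cells and in 78.9 and 75.4% of GHA501A cells. Aldoa showed the widest gap between series of all 10 genes. Its highest AG cell held 12.6 TPM and its lowest GHA501A cell 38.8 TPM, so that none of the 130 AG cells reached any of the 140 GHA501A cells. The set means of Aldoa were 1.94, 3.02, 771 and 949 TPM.

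Among the enzymes of the later steps to pyruvate, Pgam1 and Pgk1 were high in every set. Pgam1 had means of 2923, 3634, 1763 and 1924 TPM, and Pgk1 of 2305, 3205, 1038 and 1087 TPM. Both were lower in each GHA501A set than in each AG set, although their single cells overlapped broadly. Eno1 ran the other way, with means of 26.1, 42.4, 752 and 819 TPM, and only 3 of 130 AG cells exceeded the lowest GHA501A cell. Pkm had means of 117, 178, 1964 and 2257 TPM, and 1 AG cell, at 533 TPM, exceeded the lowest GHA501A cell, at 487 TPM.

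Ldha, at the exit to lactate, repeated the pattern of Aldoa, with set means of 3.76, 5.61, 596 and 745 TPM. The highest AG cell held 13.3 TPM and the lowest GHA501A cell 52.4 TPM, so the series did not overlap. How many of all genes separate the series as Aldoa and Ldha do was not counted. Differences between series were frequent over all genes, as given further on. Ldha exceeded its partner Ldhb, the heart-type subunit, in 28.8 and 28.1% of AG cells and in 95.8 and 95.7% of GHA501A cells.

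**Figure D1:**
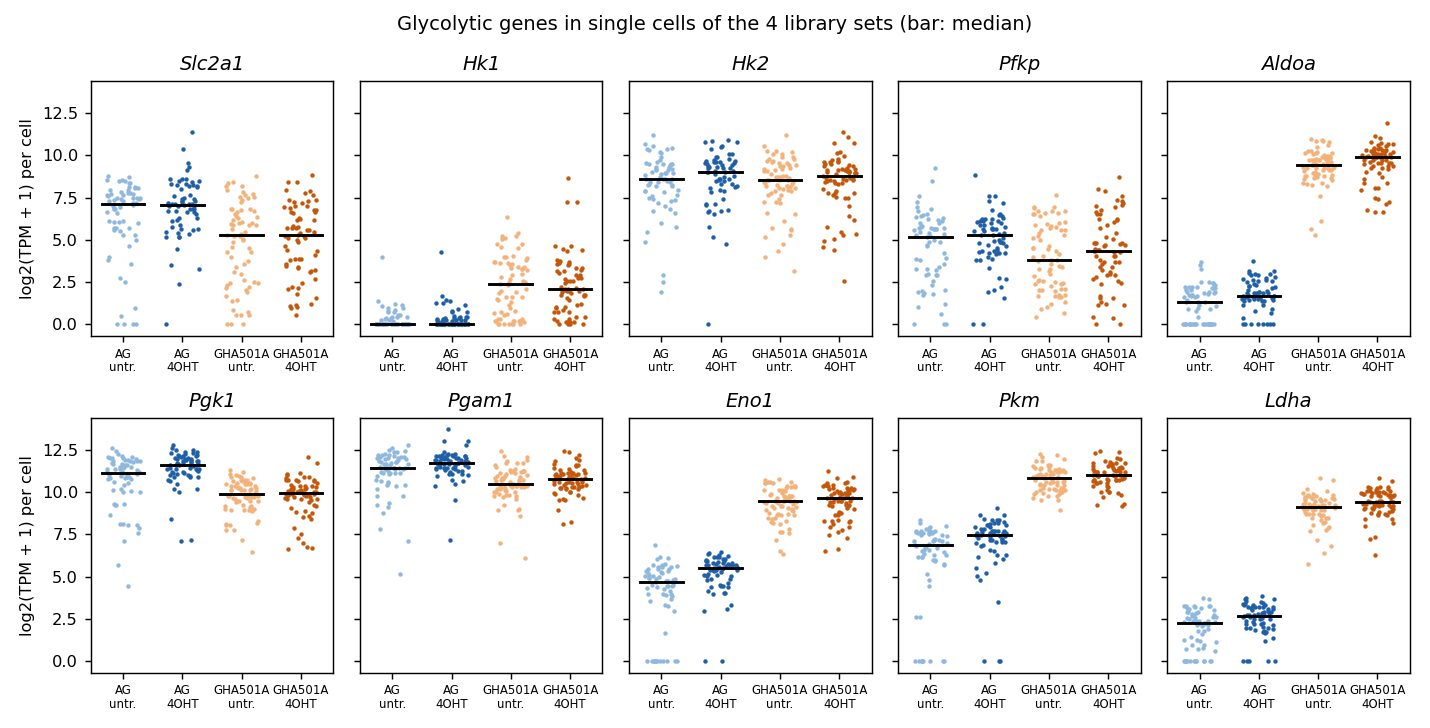
Level of each of the 10 genes in single cells of the 4 library sets, on the vertical axis as log2(TPM + 1), with 1 point per cell and a bar at the median. The GHA501A cells sit above the AG cells for Aldoa and Ldha with no overlap, and the series overlap for Slc2a1, Hk2, Pfkp, Pgk1 and Pgam1.

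The order of the levels therefore depended on the series. In AG it ran from Pgam1 (mean of the 2 sets 3279 TPM, SD 503) and Pgk1 (2755 TPM, SD 636), whose set values overlapped, through Hk2, Slc2a1, Pkm, Pfkp, Eno1 and Ldha down to Aldoa and Hk1. Slc2a1 and Pkm, next to each other in this order, also overlapped. In GHA501A it ran from Pkm (2111 TPM, SD 208) through Pgam1, Pgk1, Aldoa, Eno1, Ldha, Hk2, Slc2a1 and Pfkp to Hk1, and only Aldoa and Eno1 overlapped among neighbours. Summed over the 10 genes the sets were closer, with 0.610, 0.795, 0.748 and 0.844% of all transcripts in the same order of sets.

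The treatment comparison asked whether 4OHT in the co-culture altered these genes. All 10 had a higher fitted level in treated than in untreated sets, by 0.16 to 0.41 on the log2(mean TPM + 1) scale, but none passed the test (limma with the series as a block, adjusted p = 0.998 for each, SE 0.33 to 0.37). A gene was called changed at an adjusted p under 0.05 and an absolute log2 difference over 0.5, and 0% of the 12355 genes tested were called, with 459 at an unadjusted p under 0.05. The median over the 10 genes was 0.33, against -0.00 over all genes tested, of which 49.9% had a fitted difference above 0. The study speaks of replicates of each condition, but the labels do not tie these sets to separate cultures or animals. With the series as a block, the p-values rest on how far the treated-minus-untreated difference varies between the 2 series. This spread is moderated by limma over all genes tested.

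In pairs of sets, 9 of 10 genes had a higher mean in the treated set of both series, and 8 of them, all but Hk1, had a higher median there too. The share of all genes higher in both series was not counted. Most of the 10 genes moved together across cells, as described further on, so they are not 10 separate observations. Ldha was higher by 0.48 in AG and 0.32 in GHA501A, and Aldoa by 0.45 and 0.30. Eno1 differed by 0.68 and 0.12, Pkm by 0.60 and 0.20, and Pgk1 by 0.47 and 0.07. Pgam1 differed by 0.31 and 0.13. At the early steps Hk2 differed by 0.20 and 0.12, while Hk1, near the floor in AG, differed by 0.12 and 0.71, and Pfkp by 0.0061 and 0.53. The Hk1 mean in GHA501A treated cells rested on few cells, with a highest value of 400.4 TPM, and the median went from 4.19 TPM in untreated to 3.26 TPM in treated cells and the share of cells over 10 TPM from 29.6 to 21.7%. Slc2a1 was the exception, higher by 0.64 in AG and lower in GHA501A, at -0.07. When Krt14-high cells alone were averaged, the fitted differences of Hk2 and Pgam1 were -0.12 and -0.11.

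**Figure D2:**
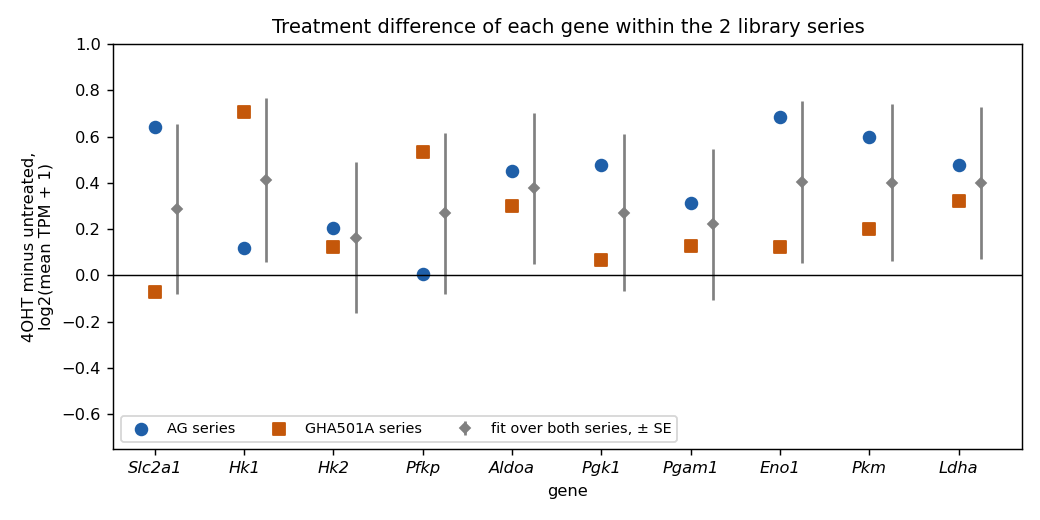
Difference between 4OHT-treated and untreated sets for each gene, on the vertical axis as log2(mean TPM + 1), with 1 point for each series and a grey diamond with its standard error for the fit over both. All points lie above 0 except Slc2a1 in GHA501A, at -0.07, and every difference is smaller than 1.

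Related pathways were read the same way. Of 12 other glycolytic isoforms and steps tested, 10 had a difference above 0 (median 0.26), and the 4 with the smallest unadjusted p were Pgam2 (1.59), Aldoc (0.74), Bpgm (0.42) and Gapdh (0.37). Of 11 hypoxia-responsive genes outside glycolysis, 9 were above 0 (median 0.39). The smallest unadjusted p there belonged to Ankrd37 (difference 1.23, limma's unadjusted p = 0.0198), followed by Car9 (0.87), Egln3 (0.62) and Ddit4 (-0.72). The citrate cycle had 10 of 11 genes above 0 with a smaller median, 0.17, and the regulators and exits of glycolysis had 9 of 14 with a median of 0.01. The pentose phosphate list had 5 of 7 above 0 with a median of 0.11. Few cells carried some of these means. Pgam2 exceeded 1 TPM in 3 of 66, 6 of 64, 3 of 71 and 4 of 69 cells of the 4 sets, and 1 GHA501A treated cell held 2464 TPM. Single cells of 808 TPM of Car9 in AG treated and 579.5 TPM of Ddit4 in AG untreated cells were likewise far above the set means of 18.5 and 22.2 TPM. None of these genes was called.

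Between the series the differences were large. Aldoa, Ldha, Eno1, Pkm and Hk1 were higher in GHA501A, and Pgk1 was lower, by limma with the treatment as a block. Aldoa differed by 7.96 (SE 0.33, adjusted p = 0.00181) and Ldha by 6.89 (SE 0.33, adjusted p = 0.00181), Eno1 by 4.52 (SE 0.35, adjusted p = 0.00231), Pkm by 3.85 (SE 0.34, adjusted p = 0.00279) and Hk1 by 3.09 (SE 0.35, adjusted p = 0.00516). Pgk1 differed by -1.35 (SE 0.34, adjusted p = 0.0456), a 2.56-fold lower level. Against these 5 and 1 of 10 genes, 18.2% of all genes tested were called higher and 10.8% lower in GHA501A. Slc2a1 (-1.30, adjusted p = 0.0620), Pgam1 (-0.82, adjusted p = 0.135), Pfkp (-0.37) and Hk2 (-0.16) did not pass. Slc2a1 passed without the treatment block (adjusted p = 0.0430), with genes detected in at least 10% of cells (0.0461) and with the mean of log2(TPM + 1) (-1.70, adjusted p = 0.00477), where Pgam1 passed too (-0.79, adjusted p = 0.0341). Pgk1 lost its call without any 1 of the 4 sets (adjusted p from 0.0663 to 0.121), with a pseudocount of 0.1 (0.0895) and with no gene filter (0.0620), and Hk1 without either AG set (0.0694 and 0.0746). The series differ in everything that goes with a library series, including the mix of Krt14-high and Col1a1-high cells, which cannot be told apart from each other.

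A property of the annotation moved with this difference. Slc2a1, Hk2, Pgk1 and Pgam1 each have 1 curated RefSeq transcript, Hk1 and Pfkp have 2, Aldoa, Eno1 and Ldha have 3, and Pkm has 11. All 5 genes called higher in GHA501A were among the 6 with 2 or more, and none was among the 4 with 1. Over all genes tested, 4.90% of the 6821 with 1 curated transcript were higher in GHA501A by more than 2 on the log2 scale, against 26.7% of the 5229 with 2 or more. By the call used for the 10 genes, 7.99% with 1 curated transcript and 31.9% with 2 or more were called higher. The median differences were -0.19 and 0.41. The part of transcript number in the result was not tested, and levels set beside each other across genes within AG carry the same limit.

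**Figure D3:**
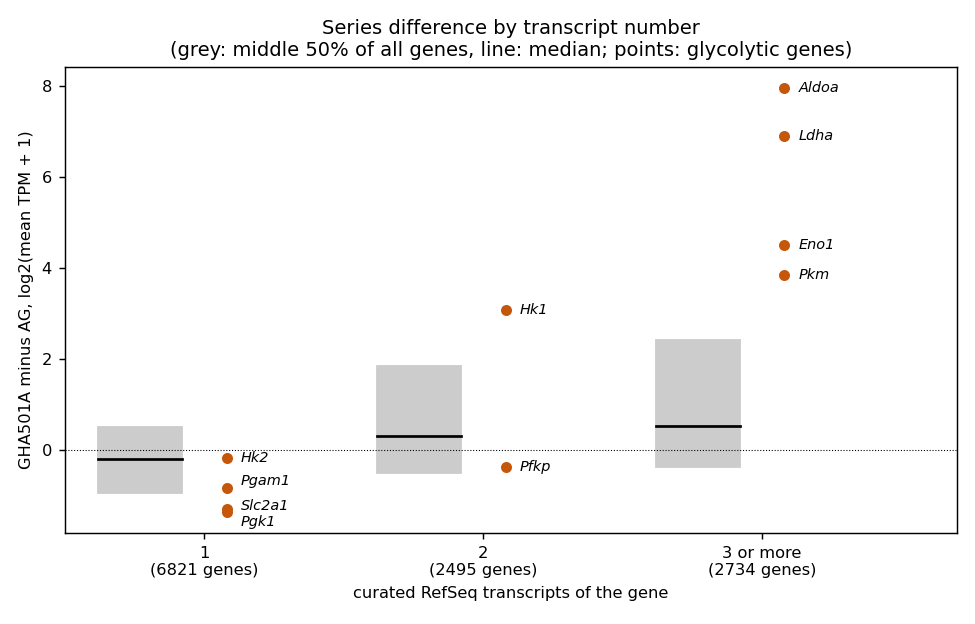
Difference between GHA501A and AG on the vertical axis, as log2(mean TPM + 1), against the number of curated RefSeq transcripts of a gene, with a grey box for the middle 50% of all genes, a line at their median and a point for each of the 10 glycolytic genes. The 4 genes with 1 transcript lie below 0, from -1.35 to -0.16, Pfkp lies at -0.37, and Hk1, Aldoa, Eno1, Pkm and Ldha lie between 3.09 and 7.96.

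Other glycolytic genes were also called between the series. Gapdh, with 2 curated transcripts, was called lower (-2.40, SE 0.33, adjusted p = 0.00826), with means of 969, 1222, 178 and 236 TPM. Aldoc was called lower (-1.53). Pfkm and Eno3, the muscle-type relatives of Pfkp and Eno1, and the glucose transporter Slc2a3 were called higher (5.17, 5.44 and 4.94). Slc2a3, with 1 curated transcript, exceeded 1 TPM in 2 of 66 and 0 of 64 AG cells and in all 71 and 69 GHA501A cells, and Pfkm in 4 and 3 AG cells. Slc2a3 therefore passed the filter on low values only through GHA501A, and its call is no support for a pattern. In all, 3 of 12 other glycolytic genes were called higher and 2 lower, beside 18.2 and 10.8% of all genes tested. Among regulators, Pdk4 and Pdk2, kinases that switch off pyruvate dehydrogenase, were called lower (-2.87 and -1.55) and 0 of 14 were called higher. Of the hypoxia list, 3 of 11 were called higher and 2 lower, beside the same shares of all genes. From the citrate cycle and pentose phosphate lists 0 genes were called.

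Eno1 has a near-identical copy, Eno1b, which was singled out after its values were seen and whose reads may not be separable from those of Eno1. Multiply-mapped reads had been discarded by the authors. Eno1b had means of 2707, 4031, 1678 and 1745 TPM in the 4 sets, above Eno1 in each. The ratio of mean Eno1 to mean Eno1b was 0.00963 and 0.0105 in AG and 0.448 and 0.469 in GHA501A. Summed over the pair, the means were 2733, 4074, 2430 and 2563 TPM.

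Krt14-high cells were then compared between series, which sets the Col1a1-high cells aside. The same 5 genes were called higher in GHA501A, from 65, 62, 9 and 12 cells in the 4 sets. Aldoa had means of 1.97 and 3.09 TPM in AG and of 829 and 770 TPM in GHA501A, a difference of 7.84 (SE 0.54, adjusted p = 0.0127). Ldha had means of 3.81 and 5.73 TPM against 806 and 749.8 TPM, a difference of 7.10 (SE 0.54, adjusted p = 0.0127). Eno1 differed by 4.05 (adjusted p = 0.0213), Pkm by 3.58 (adjusted p = 0.0229) and Hk1 by 2.81 (adjusted p = 0.0469), while Pgk1, at -1.74, did not pass (adjusted p = 0.118). The Hk1 call was the least firm, since its mean of 15.1 TPM in the 12 GHA501A treated cells included 1 cell at 147 TPM and their median was 2.46 TPM. It was lost with the lower class threshold (2.61, adjusted p = 0.0874), the higher one (1.18, adjusted p = 0.253), the mean of log2(TPM + 1) (1.55, adjusted p = 0.0701) and no gene filter (adjusted p = 0.0873), and Eno1 (0.0556) and Pkm (0.0535) were lost with no gene filter too. Over all genes 13.2% were called, 8.97% higher and 4.27% lower. Without either AG set 0 of all genes were called, with 2110 and 2214 at an unadjusted p under 0.05, and the 5 genes kept differences of 2.75 to 8.07. The share of genes higher by more than 2 was 3.09% with 1 curated transcript and 24.8% with 2 or more.

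Within GHA501A, Col1a1-high and Krt14-high cells were compared for the 10 genes, and the standard errors were 0.55 to 0.58. None was called, against 2.56% of 11021 genes tested (1.24% higher and 1.32% lower), and 1710 genes had an unadjusted p under 0.05. Slc2a1 showed the widest difference, -0.81 (SE 0.55, adjusted p = 0.577), with means of 68.6 and 69.99 TPM in Col1a1-high and 131 and 113.4 TPM in Krt14-high cells of the untreated and treated sets. Pfkp differed by 0.65 and Eno1 by 0.55, higher in Col1a1-high cells of both sets. Hk2 differed by -0.01, with its sets at -0.42 and 0.40. In the hypoxia list 10 of 11 genes were above 0 (median 0.92, against 0.18 over all genes), none of them called.

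Cells were also divided by 9 measured genes of mitosis, such as Mki67 and Top2a, into positive cells (at least 5 of them over 10 TPM) and negative cells (at most 1). No glycolytic gene was called between the classes, against 0.833% of 12012 genes, all higher in positive cells. Every fitted difference lay below 0, from -0.54 for Aldoa (SE 0.35, adjusted p = 0.590) to -0.03 for Pfkp, with a median of -0.16 against 0.24 over all genes. These signs rested on the GHA501A sets, since without its untreated or its treated set Slc2a1 (0.25 and 0.06), Hk1 (0.19 and 0.05), Pfkp (0.21 and 0.21) and Ldha (0.02 and 0.04) lay above 0, as did Pgam1 (0.0128) and Eno1 (0.05) without the treated one. Of the related lists only Pgam2, the muscle-type mutase, was called (2.53, adjusted p = 0.0435), a gene that exceeded 1 TPM in only 3 to 6 cells of a set.

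The means ran in opposite directions in the series here. In both GHA501A sets all 10 genes had lower means in mitotic-gene-positive cells. The median of Pgam1 in GHA501A untreated cells ran the other way, at 1376 TPM in positive and 1280 TPM in negative cells. Aldoa, for example, had means of 630 TPM in 45 positive and 1276 TPM in 9 negative untreated cells, and of 762 TPM in 40 positive and 1634 TPM in 9 negative treated cells. In both AG sets 8 genes had higher means in positive cells, and Aldoa and Pkm were split. The median of Hk2 in AG untreated cells ran the other way (395 TPM in positive and 452 TPM in negative cells). Hk1 had a median of 0 TPM in both classes of both AG sets. The Pfkp mean of 63.1 TPM in AG untreated positive cells included a cell at 601 TPM, and their median was 47.9 TPM, against 35.2 TPM in negative cells. Slc2a1 had means of 149.9 TPM in 25 positive and 117.7 TPM in 11 negative AG untreated cells, and of 230 TPM in 28 positive and 112.96 TPM in 16 negative AG treated cells. The difference between series, fitted as an interaction after these values had been seen, was below 0 for all 10 genes, from -1.57 for Slc2a1 to -0.48 for Ldha. None of them was called (adjusted p from 0.583 to 0.788), nor was any of all genes tested (0%), of which 1021 had an unadjusted p under 0.05. The median over the 10 genes was -0.99 against 0.27 over all genes. Col1a1-high cells made up 36 of 45 positive and 7 of 9 negative cells of GHA501A untreated and 29 of 40 and 9 of 9 of GHA501A treated, and positive cells had more genes detected in every set (medians 6341 to 6638 against 5806 to 6354.5), whose part in the result was not tested.

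**Figure D4:**
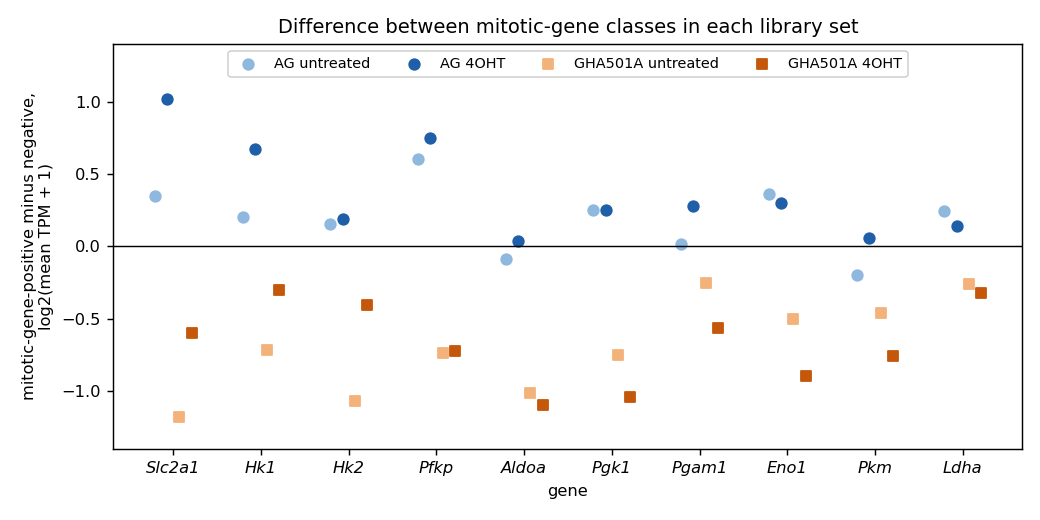
Difference between mitotic-gene-positive and negative cells of each library set for the 10 genes, on the vertical axis as log2(mean TPM + 1), with 1 point per set. The GHA501A sets lie below 0 for all 10 genes and the AG sets above 0 for all but Aldoa and Pkm in the untreated set.

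Across single cells of a set the 10 genes rose and fell together to a varying degree. Over the 45 pairs of genes the median Spearman rho was 0.34 in AG untreated, 0.34 in AG treated, 0.34 in GHA501A untreated and 0.28 in GHA501A treated cells, and 43 to 45 pairs were above 0. The highest pair means over the 4 sets joined the late steps, with Eno1 and Pkm at 0.66 (0.50 to 0.80 in single sets), Pkm and Ldha at 0.62, and Eno1 and Ldha at 0.60. Aldoa and Eno1 followed at 0.57 and Pgk1 and Eno1 at 0.56. Pairs among Aldoa, Eno1, Pkm and Ldha were above 0 within AG too, where their levels were far lower. Their rho ran from 0.53 to 0.80 in AG untreated and from 0.37 to 0.69 in AG treated cells. Aldoa exceeded 1 TPM in only 54.5% of AG untreated cells. Cells at 0 for several of these genes enter these values, and their part was not tested. Hk1 was the least tied gene, at 0.05 to 0.20 with the other 9, and Slc2a1 and Pfkp lay between. These are descriptions over 64 to 71 cells that share a library and a fixed total.

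**Figure D5:**
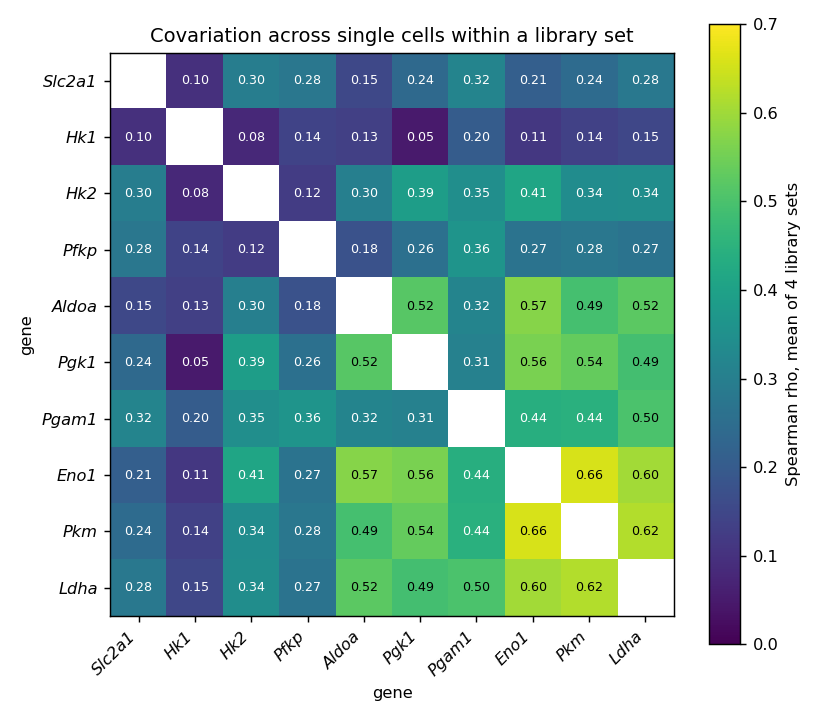
Spearman rho between each pair of the 10 genes across single cells, as the mean over the 4 library sets, with rows and columns in the order of the pathway and colour for rho. Aldoa, Pgk1, Eno1, Pkm and Ldha form a block from 0.49 to 0.66, and the row of Hk1 stays at or below 0.20.

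The number of genes detected in a cell moved with the levels of several of these genes, and in opposite directions in the series. For Pgk1 its rho with that number was 0.62 and 0.31 in AG untreated and treated cells and -0.31 and -0.15 in GHA501A. For Eno1 the values were 0.49, 0.08, -0.36 and -0.37, and for Ldha 0.55, 0.22, -0.18 and -0.17. Slc2a1 did not share this turn, at -0.05, -0.06, -0.21 and -0.15. Its part in the covariation was not tested.

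Genes whose cell-to-cell pattern was most like the summed TPM of the 10 were sought among 4309 others. These were found at TPM over 1 in at least 50% of the cells of each set. In AG the sum rested mostly on Pgam1 and Pgk1, with means of 2923 and 2305 of 6098 TPM in untreated cells. In AG treated cells they held 3634 and 3205 of 7950 TPM. Gapdh came first with a mean rho of 0.71 over the 4 sets, Tpi1 followed at 0.67 and Eno1b at 0.67, all of them glycolytic. Next were Bnip3 (0.62), a mitophagy receptor, Fam162a (0.58), Higd1a (0.57), Pgm2 (0.55), a phosphoglucomutase that links glycogen to glucose 6-phosphate, Ndrg1 (0.54), Anxa2 (0.54) and Pafah1b3 (0.51). The median over all ranked genes was 0.03 and the 95th percentile 0.24. From the fixed lists, Adm ranked 11 (0.50), Gpi1 15 (0.46), Egln3 17 (0.46), Ankrd37 24 (0.43) and Pdk1 29 (0.42), whereas Ldhb ranked 1254 (0.10) and Hif1a 2768 (-0.02). Citrate cycle genes ranked from 207 (Mdh2, 0.25) to 2239 (Sucla2, 0.02), and pentose phosphate genes from 512 (Taldo1, 0.19) to 2910 (Rpe, -0.03). Several of the leading genes outside the pathway, Bnip3, Ndrg1, Adm, Egln3 and Ankrd37, are known to respond to low oxygen.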

How the data were processed

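Single-cell libraries (SMART-seq v4, Fluidigm C1) were trimmed and aligned to GRCm38 with TopHat by the authors, who discarded multiply-mapped reads, counted reads with featureCounts and deposited TPM values. Versions and the annotation are not given in the sources used here. Cells imaged as doublets or non-viable had been excluded by the authors. The 16 columns matching no label were not used.

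Cells were averaged within each library set or cell class, the replicate being the set. Differences in log2(mean TPM + 1) were tested with limma 3.58.1 in R 4.3.3, with Benjamini-Hochberg adjustment over every gene that exceeded a TPM of 1 in more than 5 cells. Comparisons of treatment, series, cell class and mitotic class held the other factor or the set as a block. Classes needed at least 5 cells per set. Of 10 mitotic genes listed, 9 were in the table. All 10 glycolytic genes are named. Others come from lists of related pathways (up to 4 examples of smallest p), or are the 10 genes with the highest likeness. Members and lists were chosen with earlier results of these data known. The fits were also run on simulated data, whose outcome is not given here and is not used as support. Pseudocount, filter, averaging, block, thresholds and left-out sets were varied.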

Additional observations from a re-analysis of the deposited data

Results flagged for a closer look

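The difference in mean level between mitotic-gene-positive and negative cells ran one way in both AG sets and the other way in both GHA501A sets for 8 genes. Medians of Hk2 and Pgam1 did not follow the means in every set. The difference between series, as an interaction in limma on the log2(mean TPM + 1) scale, was -1.57 for Slc2a1, -0.95 for Hk1, -0.91 for Hk2, -1.41 for Pfkp, -1.15 for Pgk1, -0.56 for Pgam1, -1.03 for Eno1 and -0.48 for Ldha. None passed the adjustment over all genes.

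Among the 8 AG cells whose library name and treatment label disagree, some exceeded the highest untreated AG cell. A cell labelled treated but named neg held 6685 TPM of Pgk1, against 6124 TPM, and the highest Pkm value of these cells was 415 TPM, against 330 TPM. Both lie below the highest AG treated cells, at 6985 and 533 TPM. A cell labelled untreated but named pos held 21.9 TPM of Aldoa, against 11.9 TPM in untreated and 12.6 TPM in treated AG cells.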

How the results depend on the processing

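Of the single-gene values under the alternatives, 25 lost the call, 4 gained it, 22 turned sign in a tested fit and 737 were counted as unchanged. Leaving out a set leaves no test for the treatment and the Col1a1-high comparison. Such values lay within the standard error of the main fit and were counted as unchanged, even where the sign turned. The treatment comparison turned for Hk2 (-0.12) and Pgam1 (-0.11) when only Krt14-high cells were used. It also turned, without a test, for Slc2a1 (-0.07) when either AG set was left out. Between series in Krt14-high cells Hk2 turned to 0.13 with the mean of log2(TPM + 1) and ranged from -0.39 to 0.0726 on leaving out each set. Between Col1a1-high and Krt14-high cells the lower class threshold gave 0.0087 for Hk2 and -0.0505 for Pgam1, and the higher one -0.17 for Pgam1. There the treated set alone gave 0.40 for Hk2, and the untreated set alone gave -0.11 for Aldoa and -0.25 for Pgam1, all without a test. Between mitotic classes Hk1 turned to 0.42 with a pseudocount of 0.1 and to 0.30 with the lower threshold, and Pfkp to 0.0076 with the lower threshold, 0.0252 with the higher one and 0.0107 in cells with at least 4000 genes. On leaving out each set Slc2a1 ranged from -0.48 to 0.25, Hk1 from -0.27 to 0.19, Pfkp from -0.28 to 0.21, Pgam1 from -0.27 to 0.0128, Eno1 from -0.37 to 0.0534 and Ldha from -0.15 to 0.0432, with values above 0 only without a GHA501A set. The causes were not tested.

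Counts of all genes called moved more. Between series, 3580 became 5539 with the mean of log2(TPM + 1), 1209 among genes with 1 curated RefSeq transcript (an alternative added after the data were seen, with fewer genes tested), and 1468 to 2279 on leaving out each set. In Krt14-high cells, 1565 became 681 with no gene filter, 79 among genes with 1 curated transcript, and 0 to 3038 on leaving out each set, and the 5 glycolytic genes called became 2 with no gene filter and 0 to 5 on leaving out each set. Between Col1a1-high and Krt14-high cells, 282 became 0 with a pseudocount of 0.1 (1670 genes at limma's unadjusted p under 0.05), 0 with no gene filter (1679), 0 with the higher threshold (1804) and 428 with the mean of log2. Between mitotic classes, 100 became 26 with the pseudocount, 56 with no gene filter, 265 with the mean of log2, and 0 to 45 on leaving out each set. Without the replicate block, 0 glycolytic genes were called for treatment (53 genes at an unadjusted p under 0.05), 7 between series with Slc2a1 added (3853 of all genes), 5 in Krt14-high cells (2034), 0 between cell classes (195) and 0 between mitotic classes (87). Leaving out a set in the treatment comparison leaves the other series' difference, which has no test. Read depth is unknown from TPM.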
